A study of Mus musculus with 20 samples.

Results

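The 33 genes described here encode proteins of homologous recombination and of the Fanconi anaemia pathway, and they are 33 of the 18193 mouse genes that could be named from a single-symbol probe set on the arrays. They were listed by name as repair factors, with earlier results of these data known. Each gene is represented by its single-symbol probe set with the highest mean log2 signal over the arrays, and all 33 were measured. The study profiled bone marrow VE-cadherin+ endothelial cells of C57/Bl6 mice aged 8 to 10 weeks on 20 Affymetrix expression arrays. The groups were non-irradiated mice and mice examined 6 hours, 24 hours or 14 days after total body irradiation with 5 Gy, with 5 arrays in each of the 4 groups. All groups share the strain, the tissue and the marker named in the labels, VE-cadherin, the adherens junction protein encoded by Cdh5. The labels number 5 biological replicates in each group; whether each came from 1 mouse or from pooled mice is not stated, so p-values measure the spread between these RNA samples.

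Homologous recombination repairs a DNA double-strand break, or a broken replication fork, by copying an intact sister chromatid, and it is therefore used mainly in S and G2 phase. Nucleases first resect the ends, Brca1, Palb2 and Brca2 then place the recombinase on the single strand for strand exchange, and helicases and structure-specific nucleases finally separate the joined molecules. The Fanconi pathway works on interstrand crosslinks and stalled forks: a multi-subunit core complex ubiquitinates the Fancd2 and Fanci pair, which recruits nucleases and recombination factors. Many of these genes are transcribed in proliferating cells, under control of E2F factors. Bone marrow is a tissue in which loss of these factors is known to cause failure of blood formation, and its sinusoidal endothelium is damaged by irradiation.

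The values are the authors' linear probe set signals, which they had scaled so that the trimmed mean of every array is 500, and changes are differences of mean log2(signal + 1) with their standard error (SE). A gene is called where limma's Benjamini-Hochberg adjusted p over all 18193 genes is under 0.05. Signals were listed in the order of replicates 1 to 5, and the signal of one probe set was not compared with that of another. The label was checked first. Cdh5 was far above background in all groups, where the background of an array was a signal of at most 51.5. The 15 pan-leukocyte markers had a mean log2 signal of 11.3 and the 19 measured erythroid markers one of 11.8 in non-irradiated arrays, so the RNA also held transcripts that define other blood lineages. Cdh5 measured 7631 to 10940 at 6 hours, 4680 to 5097 at 24 hours and 1094 to 1757 at day 14, against 2710 to 3961 in non-irradiated arrays. Klf1, the erythroid master transcription factor, measured 232 to 592 at 6 hours, 77.5 to 172 at 24 hours and 7361 to 9225 at day 14, against 5343 to 6133 in non-irradiated arrays. Ptprc, the leukocyte antigen CD45, lay between 2158 and 5455 in all 20 arrays. The 6-hour arrays differed more from each other than the arrays of other groups did. The median absolute log2 difference between 2 arrays of the 6-hour group was 0.611 to 0.676, and within the other groups it was 0.285 to 0.419.

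At 6 hours 25 of the 33 genes were called lower and 0 higher than in non-irradiated cells, while 14.5% of all genes were called lower and 12.9% higher. At 24 hours 27 of the 33 were called lower and 0 higher, against 13.8% of all genes lower and 15.7% higher. By day 14 the signals were back near the non-irradiated level: 2 genes, Rad54l and Polq, were called lower and 1, Nbn, higher, where 13% of all genes were called lower and 9.47% higher. The 24-hour count was 13 with the 3' minus 5' signals of Gapdh and of beta-actin, signs of RNA quality, together as covariates. For Gapdh that log2 difference averaged 1.33 in non-irradiated arrays, 1.58 in 6-hour arrays, 0.774 in 24-hour arrays and 0.894 in day 14 arrays. The part of either signal in the result was not tested. The median log2 change of the 33 genes was -1.49 at 6 hours, -1.63 at 24 hours and 0.16 at day 14, beside medians over all genes of -0.02, -0.07 and -0.18. Of the 33 genes, 22 were called lower at both early times and at neither direction on day 14, and 2 more, Rad54l and Polq, were called lower at all 3 times. Brip1, Eme1 and Uimc1 were called lower at 24 hours but not at 6 hours, and Nbn was called lower at 6 hours but not at 24 hours. Rad52, Fancb, Fancc, Mus81 and Slx4 were called at none of the 3 times. The 24-hour group had the lowest mean log2 signal for 21 of the genes and the 6-hour group for 10, and the highest mean lay at day 14 for 19 genes and in the non-irradiated group for 12. All 5 arrays lay below all 5 non-irradiated arrays for 21 of the 33 genes at 6 hours and for 26 at 24 hours, against 8.05% and 12.9% of all genes, and all 5 lay above for 0 at both times, against 7.59% and 15.1%. At day 14 they lay below for 3 genes and above for 5, against 11.6% and 11.4% of all genes. In a bulk RNA sample, fewer cells of a type that expresses these genes and less of their RNA per cell cannot be told apart.

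**Figure D1:**
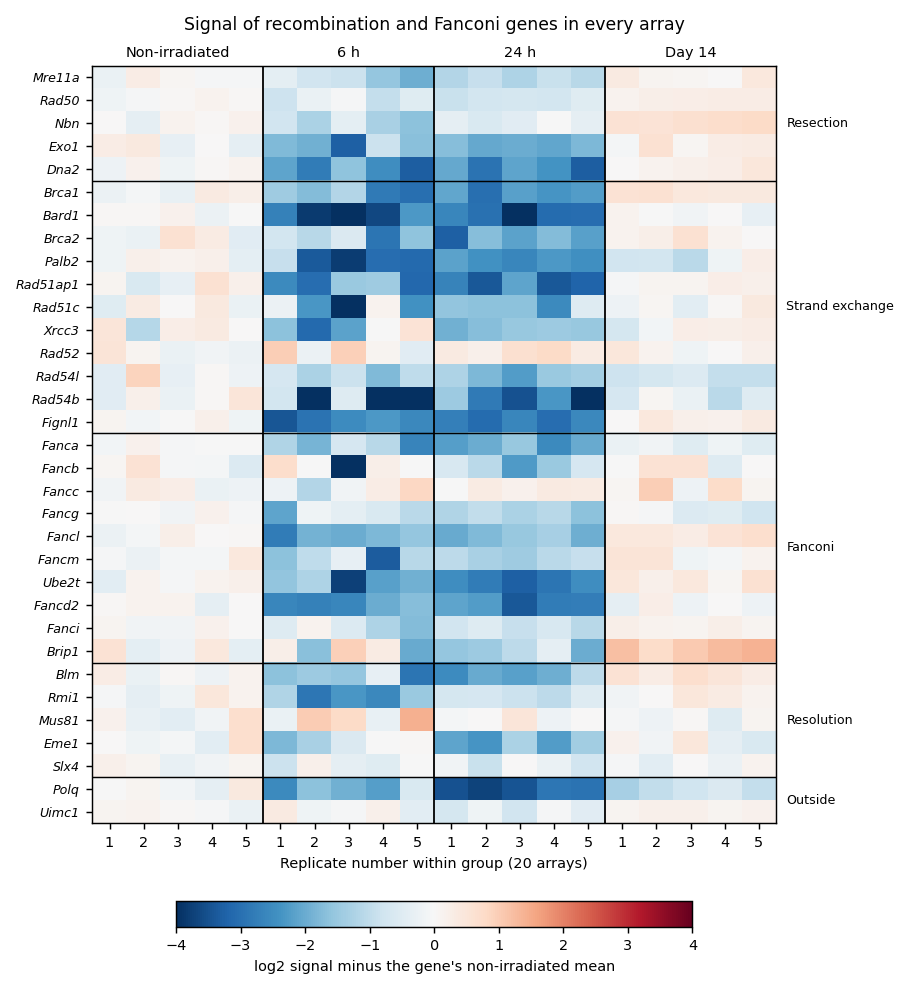
Heat map of the 33 genes (rows, grouped by step) in the 20 arrays (columns), coloured by log2 signal minus the gene's mean in the 5 non-irradiated arrays. The blue blocks at 6 and 24 hours cover most rows, Rad52, Fancc and Mus81 are pale or red there, and the day 14 columns are again near the non-irradiated colour.

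Later times were also compared directly with earlier ones. Between 24 and 6 hours 2 of the 33 genes were called lower and 2 higher, where 10.1% of all genes were called lower and 13.7% higher. At day 14 against 24 hours 0 of the 33 were called lower and 28 higher (21.7% and 15.2% of all genes). At day 14 against 6 hours the counts were 0 lower and 24 higher (25% and 19.8% of all genes). The arrays of the 2 times did not overlap for 1 gene below and 1 above at 24 hours against 6 hours (6.61% and 7.99% of all genes). At day 14 they lay wholly above for 29 genes against 24 hours (15.7%) and for 17 against 6 hours (13.1%), and wholly below for 0 against either (20.6% and 15.1%). At an unadjusted limma p under 0.05, 0 genes were higher at 6 or at 24 hours than in non-irradiated cells, 0 were lower at day 14 than at 24 hours, and 1 was lower at day 14 than at 6 hours. The median log2 changes of the 33 genes were -0.19 for 24 hours against 6 hours, 1.74 for day 14 against 24 hours and 1.62 for day 14 against 6 hours, beside -0.05, -0.27 and -0.27 over all genes.

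The 4 steps of the pathway are described here by counts and medians, without a test of whether they differ. Over all genes 14.5% were called lower at 6 hours and 13.8% at 24 hours, with medians of -0.02 and -0.07. The 6-hour changes of single genes overlapped between steps. They ran from -3.69 to 0.27 in strand exchange, -2.32 to -0.08 in Fanconi, -2.46 to -0.52 in resection and -2.09 to 0.53 in resolution. Strand exchange had 10 of 11 genes lower at 6 hours and 10 of 11 at 24 hours, with medians of -2.04 and -2.37. The Fanconi genes had 7 of 10 lower at 6 hours and 8 of 10 at 24 hours, with medians of -1.18 and -1.25. Resection had 5 of 5 lower at 6 hours and 4 of 5 at 24 hours, with medians of -1.10 and -1.07. Resolution had 2 of 5 lower at 6 hours and 3 of 5 at 24 hours, with medians of -0.73 and -0.76. Of the genes outside these steps, Polq was called lower at both early times and Uimc1 at 24 hours.

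**Figure D2:**
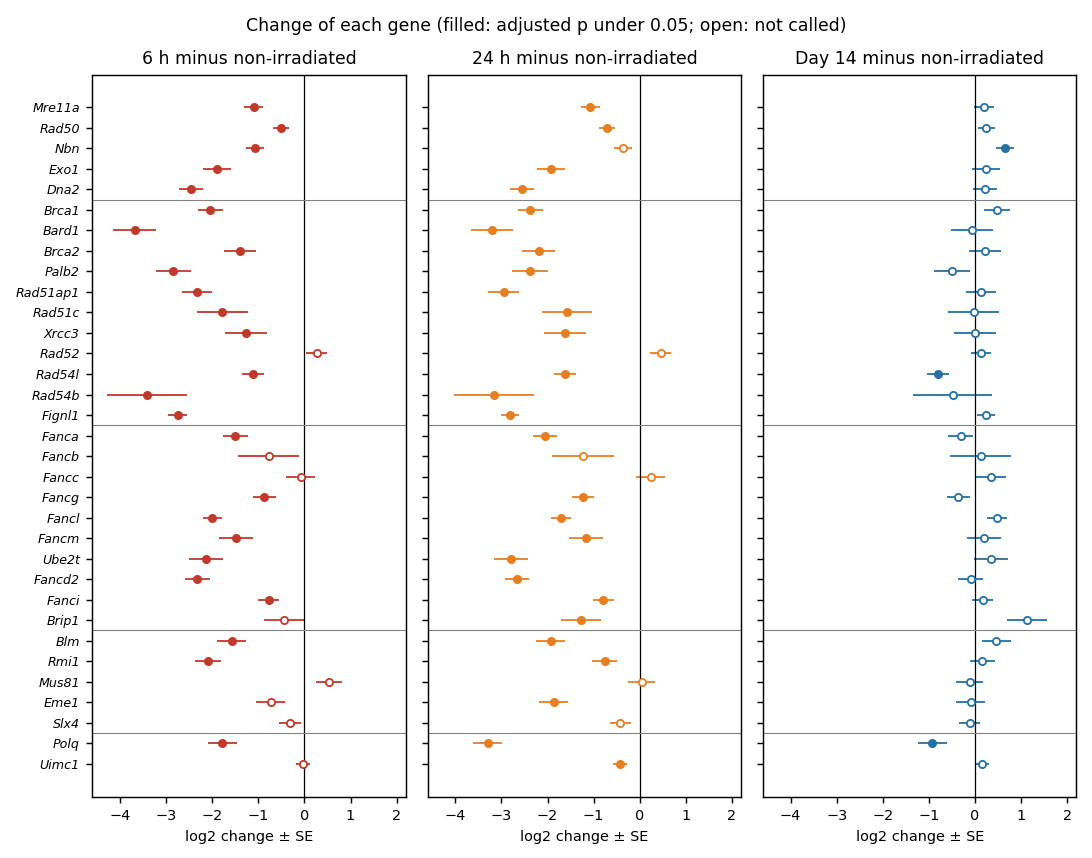
Log2 change of each gene against non-irradiated cells at 6 hours, 24 hours and day 14 (3 panels), with the SE of the fit as bars, filled where the adjusted p is under 0.05; lines part resection, strand exchange, Fanconi, resolution and the remaining genes. Strand exchange has the lowest medians of the 4 steps at both early times, -2.04 and -2.37, and at day 14 only Rad54l and Polq are filled on the left and Nbn on the right.

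Promoter sequences of 28 of the 33 genes were held in the RefSeq table (GRCm38.p6), each running from 250 bases before to 50 bases after the start of transcription, for a total of 300 bases. For the 3 genes with several listed starts the one listed first was used. They are shown for 4 genes that were called lower at both early times, Brca1, Fignl1, Ube2t and Polq, and for 2 that were called at no time, Rad52 and Mus81. Capitals mark matches, on either strand, to 1 of the core forms of an E2F site (which read TTGGCGC in the first form, TTCCCGC in the next, TTCGCGC in another and TTGCCGC in the last), of a cell-cycle gene homology region or CHR (with the letters TTTGAA, else with TTCGAA), and to the NF-Y box CCAAT. The E2F and NF-Y matches can overlap, and in Ube2t a reversed E2F match shares bases with a CCAAT.
Brca1 (chr11:101551906-101552205, minus strand): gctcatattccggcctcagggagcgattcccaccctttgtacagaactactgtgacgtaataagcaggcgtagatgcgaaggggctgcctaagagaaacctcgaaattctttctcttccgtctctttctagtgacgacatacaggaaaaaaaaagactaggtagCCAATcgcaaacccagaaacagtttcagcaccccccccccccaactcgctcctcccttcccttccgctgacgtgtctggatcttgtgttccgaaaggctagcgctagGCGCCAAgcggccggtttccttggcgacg
Fignl1 (chr11:11808913-11809212, minus strand): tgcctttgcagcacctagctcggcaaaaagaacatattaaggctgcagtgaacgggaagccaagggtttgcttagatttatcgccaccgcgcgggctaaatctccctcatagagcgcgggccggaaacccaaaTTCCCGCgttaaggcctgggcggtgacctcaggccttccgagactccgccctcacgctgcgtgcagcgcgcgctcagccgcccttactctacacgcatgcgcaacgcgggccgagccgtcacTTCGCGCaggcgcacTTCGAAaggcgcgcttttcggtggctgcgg
Ube2t (chr1:134962315-134962614, plus strand): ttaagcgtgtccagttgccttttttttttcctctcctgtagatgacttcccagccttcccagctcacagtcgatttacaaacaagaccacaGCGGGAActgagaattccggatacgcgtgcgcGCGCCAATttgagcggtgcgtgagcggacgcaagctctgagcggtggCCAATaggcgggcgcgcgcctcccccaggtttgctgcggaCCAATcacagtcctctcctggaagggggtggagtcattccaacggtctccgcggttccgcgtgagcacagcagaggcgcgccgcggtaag
Polq (chr16:37011536-37011835, plus strand): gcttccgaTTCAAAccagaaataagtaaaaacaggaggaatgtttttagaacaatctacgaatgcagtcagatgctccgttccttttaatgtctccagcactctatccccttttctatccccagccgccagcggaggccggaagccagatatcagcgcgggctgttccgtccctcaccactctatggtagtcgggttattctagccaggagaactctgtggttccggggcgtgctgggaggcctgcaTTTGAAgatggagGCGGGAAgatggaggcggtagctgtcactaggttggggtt
Rad52 (chr6:119902448-119902747, plus strand): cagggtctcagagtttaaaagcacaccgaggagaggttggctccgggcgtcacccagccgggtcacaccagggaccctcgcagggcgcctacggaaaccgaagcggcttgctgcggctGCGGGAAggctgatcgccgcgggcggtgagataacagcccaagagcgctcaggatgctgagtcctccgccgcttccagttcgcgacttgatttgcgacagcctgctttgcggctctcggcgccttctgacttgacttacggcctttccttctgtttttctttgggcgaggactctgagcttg
Mus81 (chr19:5488330-5488629, minus strand): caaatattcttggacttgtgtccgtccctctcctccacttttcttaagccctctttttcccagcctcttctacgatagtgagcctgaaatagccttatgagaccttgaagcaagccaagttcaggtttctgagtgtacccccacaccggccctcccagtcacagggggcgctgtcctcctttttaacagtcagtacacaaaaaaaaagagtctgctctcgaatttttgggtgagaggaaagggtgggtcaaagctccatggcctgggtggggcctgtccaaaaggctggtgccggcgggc
The Brca1 window has a CCAAT from base -86 to -82 and a reversed E2F core at 22 to 28 after the start. Fignl1 has E2F cores at -117 to -111 and at 6 to 12 and a CHR match at 21 to 26. Ube2t carries reversed E2F cores at -159 to -153 and -127 to -121, and CCAAT at 3 positions. Polq has a CHR match across its start, from -3 to 3, another at -242 to -237 on the reverse strand, and a reversed E2F core at 11 to 17. The Rad52 window has a reversed E2F core at -132 to -126 and Mus81 has none of these letters. A match was therefore present in called genes and in an uncalled one. Among windows not shown, those of Dna2 and Fancl, both called lower at both early times, had no match. The window of Fancb, called at no time, had an E2F core and a CCAAT.

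An E2F core was found in 16 of the 28 promoters, 57.1%, against 14.2% of the promoters of 14369 genes on the array. By comparison 61.1% of 18 promoters of DNA replication genes and 12.5% of 16 promoters of mitosis genes held one. CHR letters were in 17.9% of the 28 promoters and 15.1% of all, while they were in 81.2% of the mitosis promoters. CCAAT was in 57.1% of the 28 and 38.2% of all. Among the recombination and Fanconi genes, 13 of 20 promoters (65%) of those lower at both early times and 2 of 5 (40%) of those never called had an E2F core. By step, E2F cores were in 7 of 10 strand exchange promoters, 6 of 9 Fanconi promoters, 2 of 5 resolution promoters and 0 of 2 resection promoters. The median GC content of the 28 windows was 59.8%, against 58.7% of all. Letter matches are a description and do not show that a factor binds.

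**Figure D3:**
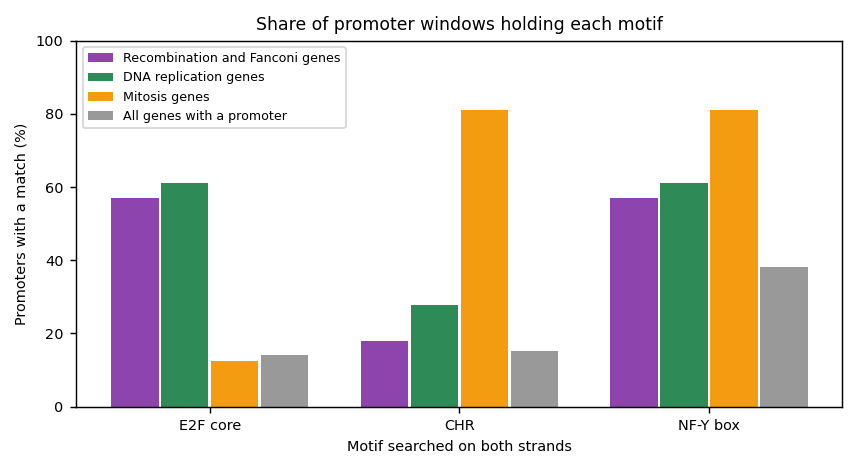
Share of promoter windows (percent, axis from 0) with a match to the E2F core, CHR or NF-Y box, for the recombination and Fanconi genes, DNA replication genes, mitosis genes and all genes. The E2F bar of the recombination and Fanconi genes, 57.1%, is near that of the replication genes, 61.1%, and above the 14.2% of all genes; the CHR bar is at 17.9%, against 81.2% in mitosis genes.

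Resection opens the break. Mre11a, Rad50 and Nbn form the complex that detects ends and starts cutting them, with Mre11a as the nuclease, Rad50 as the ATP-driven tether and Nbn as the subunit that binds the damage kinase Atm. Mre11a measured 1150, 1691, 1440, 1313 and 1315 in the non-irradiated arrays and 1048, 801, 755, 464 and 356 at 6 hours. Mre11a then measured 605, 718, 577, 745 and 632 at 24 hours and 1744, 1471, 1437, 1395 and 1839 at day 14. All 5 arrays at 6 hours and at 24 hours were below all 5 non-irradiated arrays, and day 14 overlapped with them. Mre11a was thus 2.15-fold lower at 6 hours (log2 change -1.10 ± 0.21 (SE), adjusted p = 0.000212) and 2.1-fold lower at 24 hours (log2 change -1.07 ± 0.21 (SE), adjusted p = 0.000266). Rad50 signal was 601, 655, 701, 742 and 692 in the non-irradiated arrays and 384, 560.4, 655, 349.6 and 478 at 6 hours. Rad50 signal at 24 hours was 365, 409, 415, 407 and 488, and at day 14 it was 746, 798, 813, 834 and 829.9. At 6 hours only the highest array, replicate 3, reached into the non-irradiated range, and at 24 hours the groups did not overlap. The Rad50 fall was 1.43-fold at 6 hours (log2 change -0.52 ± 0.18 (SE), adjusted p = 0.0289) and 1.63-fold at 24 hours (log2 change -0.70 ± 0.18 (SE), adjusted p = 0.003). The 6-hour call was lost without non-irradiated replicate 3, 4 or 5 or 6-hour replicate 1 or 4, with adjusted p up to 0.0796. A second, dimmer Rad50 probe set had log2 changes of -1.57 at 6 hours, -1.47 at 24 hours and -1.84 at day 14, where the one used was at 0.25.

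Nbn followed another course. Nbn gave 800, 609, 873, 817 and 886 without irradiation, then 461, 325, 605, 319 and 251 at 6 hours. Nbn gave 620.2, 518, 573, 779 and 622 at 24 hours and 1186, 1154, 1223, 1295 and 1338 at day 14. All 6-hour arrays lay below the non-irradiated ones, the 24-hour arrays overlapped them, and all day 14 arrays lay above them. Nbn was 2.11-fold lower at 6 hours (log2 change -1.08 ± 0.20 (SE), adjusted p = 0.00013), not called at 24 hours (log2 change -0.36 ± 0.20 (SE), adjusted p = 0.191) and 1.56-fold higher at day 14 (log2 change 0.65 ± 0.20 (SE), adjusted p = 0.0204). Tested directly, 24 hours exceeded 6 hours (log2 change 0.72 ± 0.20 (SE), adjusted p = 0.00844). That call was lost in the fit of only these 2 groups, and with the 3' minus 5' signals or the erythroid marker mean as covariates. The day 14 call was lost without non-irradiated replicate 2, the lowest array of that group, with adjusted p = 0.0663. Of the 33 genes Nbn was the only one called higher than in non-irradiated cells at any of the 3 times in the reported model. Some other fits on the authors' scale also called Blm, Brca1, Brip1 or Fancl higher at day 14.

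The long-range nucleases moved further. Dna2, a nuclease and helicase that extends resection, had the largest 6-hour change of the step. Dna2 read 1055, 1355, 1075, 1231 and 1329 in non-irradiated cells and 278, 173, 389, 215 and 121 at 6 hours. Dna2 read 291, 155, 277, 228 and 120.4 at 24 hours, then 1206, 1339, 1397, 1458 and 1637 at day 14. Early and other arrays were separated by a wide gap, with the highest 6-hour array at 389 and the lowest non-irradiated array at 1055. Dna2 was 5.51-fold lower at 6 hours (log2 change -2.46 ± 0.26 (SE), adjusted p = 5.95e-08) and 5.9-fold lower at 24 hours (log2 change -2.56 ± 0.26 (SE), adjusted p = 2.38e-08). Exo1, the exonuclease that works in parallel, ranged over 68.9 to 373 at 6 hours, 158 to 208 at 24 hours and 641 to 1034 at day 14, against 529.9 to 883 in non-irradiated arrays. Its log2 change was -1.90 ± 0.30 (adjusted p = 2.14e-05) at 6 hours and -1.93 ± 0.30 (adjusted p = 1.47e-05) at 24 hours, and the day 14 arrays overlapped the non-irradiated ones. All 5 resection genes had their highest mean at day 14, and the day 14 arrays of each lay above its 24-hour and its 6-hour arrays.

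Brca1 and Bard1 form a ubiquitin ligase that favours resection over end joining and helps to load the recombinase. Brca1 measured 1149, 1277, 1086, 1740 and 1571 in the non-irradiated arrays and 503, 403, 591, 187 and 164 at 6 hours. Brca1 then measured 314, 167, 298, 258 and 286 at 24 hours and 1996, 2061, 1799, 1758 and 1747 at day 14. The early arrays did not overlap the non-irradiated ones, and all day 14 arrays lay above them. Brca1 was 4.11-fold lower at 6 hours (log2 change -2.04 ± 0.28 (SE), adjusted p = 2.39e-06) and 5.18-fold lower at 24 hours (log2 change -2.37 ± 0.28 (SE), adjusted p = 1.96e-07), and at day 14 it was not called (log2 change 0.48 ± 0.28 (SE), adjusted p = 0.225). The model shares the spread of a gene across all 4 groups, so the uneven 6-hour arrays also enter the day 14 test. Fitted with only the 2 groups compared, or after median centring, Brca1 was called higher at day 14. Bard1 signal was 565, 555, 605, 459 and 542 in the non-irradiated arrays and 82.5, 37.6, 7.62, 42.97 and 109.5 at 6 hours. Bard1 signal at 24 hours was 88.5, 68.02, 26.8, 62.9 and 64.5, and at day 14 it was 596, 539, 493, 549.7 and 435. All 10 early arrays lay below the others, and 3 of the 6-hour arrays were at or under their array's background, the 95th percentile of probe sets for absent bacterial genes. Bard1 had the largest fitted 6-hour change, 12.9-fold (log2 change -3.69 ± 0.46 (SE), adjusted p = 7.11e-07), a size that rests partly on signal at background. Rad54b came next, also with 3 of its 5 arrays at background. With 1 array left out at a time the change was -4.03 to -3.11 for Bard1 and -4.15 to -2.60 for Rad54b, so their order is not settled. At 24 hours, where none of its arrays was at background, Bard1 was 9.21-fold lower (log2 change -3.20 ± 0.46 (SE), adjusted p = 4.72e-06).

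Palb2 bridges Brca1 to Brca2, and Brca2 delivers the recombinase to single-stranded DNA. Palb2 gave 528, 675, 647, 685 and 447 without irradiation, then 310.4, 56.8, 41.1, 70.4 and 67.7 at 6 hours. Palb2 gave 133, 110.2, 95.7, 119 and 108 at 24 hours and 345, 349.7, 276, 525 and 709 at day 14. In the 6-hour group replicate 1 stood far above the other 4, but still below the non-irradiated arrays, and the day 14 arrays overlapped the non-irradiated range from 447 to 685. Palb2 was 7.19-fold lower at 6 hours (log2 change -2.85 ± 0.39 (SE), adjusted p = 2.2e-06) and 5.2-fold lower at 24 hours (log2 change -2.38 ± 0.39 (SE), adjusted p = 2.28e-05). Brca2 read 734, 685, 1255, 1033 and 602 in non-irradiated cells and 495, 387, 553, 108 and 269 at 6 hours. Brca2 read 85.9, 256, 187, 249.7 and 185 at 24 hours, then 905, 967, 1255, 921 and 844 at day 14. Early arrays were all below the non-irradiated ones, and the 24-hour arrays were more alike than the 6-hour arrays except for a low replicate 1. Brca2 was 2.63-fold lower at 6 hours (log2 change -1.39 ± 0.35 (SE), adjusted p = 0.00315) and 4.58-fold lower at 24 hours (log2 change -2.20 ± 0.35 (SE), adjusted p = 1.74e-05). The difference between 24 and 6 hours was not called (adjusted p = 0.099).

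Rad51c and Xrcc3 are paralogues of the recombinase that act together in 1 complex, and both gave ragged values at 6 hours. Rad51c measured 171, 307, 245, 317 and 202 in the non-irradiated arrays and 207, 47.2, 13.2, 265 and 44.3 at 6 hours. Rad51c then measured 80.6, 77.7, 77.4, 40.8 and 167 at 24 hours and 208, 253, 182, 248 and 315 at day 14. At 6 hours replicates 1 and 4 were within the non-irradiated range, 3 were far below, and 2 arrays were at background; at 24 hours all 5 were below the non-irradiated arrays. Rad51c was called lower at 6 hours (log2 change -1.79 ± 0.55 (SE), adjusted p = 0.0157) and at 24 hours (log2 change -1.58 ± 0.55 (SE), adjusted p = 0.0315). The first call was lost without 6-hour replicate 3 (adjusted p = 0.0565), and the second was lost without any 1 of non-irradiated replicates 2, 3 and 4 or 24-hour replicates 1 to 4, with adjusted p up to 0.09. Xrcc3 signal was 958, 308, 814, 866 and 692 in the non-irradiated arrays and 218, 78.05, 154, 665 and 998 at 6 hours. Xrcc3 signal at 24 hours was 178, 209, 235, 249 and 236, and at day 14 it was 418, 633, 821, 796 and 826. Replicates 4 and 5 of the 6-hour group were as high as non-irradiated arrays, and non-irradiated replicate 2 was the low array of its group. Xrcc3 was called lower at 6 hours (log2 change -1.27 ± 0.46 (SE), adjusted p = 0.0412) and at 24 hours (log2 change -1.62 ± 0.46 (SE), adjusted p = 0.0084), and its 24-hour arrays did not overlap the non-irradiated ones. The 6-hour call was lost without any 1 of 7 arrays (non-irradiated replicates 1, 3, 4 and 5 and 6-hour replicates 1, 2 and 3; adjusted p up to 0.152). A second Xrcc3 probe set changed by -0.01 at 6 hours and by -1.45 at 24 hours.

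Rad54l and Rad54b are related DNA translocases that drive strand invasion by the recombinase and later strip it from the joined DNA. Rad54l gave 907, 2299, 988, 1280 and 1075 without irradiation, then 772, 507, 673, 363 and 615 at 6 hours. Rad54l gave 521, 353, 262, 435 and 478 at 24 hours and 695, 755, 841, 632 and 642 at day 14. All early and all day 14 arrays lay below the non-irradiated arrays, of which replicate 2 was the highest by far. Rad54l was 2.17-fold lower at 6 hours (log2 change -1.12 ± 0.24 (SE), adjusted p = 0.000852), 3.09-fold lower at 24 hours (log2 change -1.63 ± 0.24 (SE), adjusted p = 7.49e-06) and 1.74-fold lower at day 14 (log2 change -0.80 ± 0.24 (SE), adjusted p = 0.0198). Without non-irradiated replicate 2 the day 14 call was lost (adjusted p = 0.083). Of the 3 other Rad54l probe sets, 1 changed by -0.12 at day 14, and the others by -0.73 and -1.36. Rad54b read 163, 256, 186, 230 and 309 in non-irradiated cells and 134, 10.1, 156, 6.99 and 1.14 at 6 hours. Rad54b read 80.2, 30.6, 19.1, 43.8 and 3.24 at 24 hours, then 141, 234, 187, 105 and 155 at day 14. Rad54b was dim throughout, with 3 arrays at 6 hours and 2 at 24 hours at background, and the spread among early arrays was wide although none reached the non-irradiated range. It was called lower at 6 hours (log2 change -3.42 ± 0.87 (SE), adjusted p = 0.00359) and at 24 hours (log2 change -3.16 ± 0.87 (SE), adjusted p = 0.00634), and not at day 14 (log2 change -0.49 ± 0.87 (SE), adjusted p = 0.722).

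Rad52, which anneals complementary single strands, was the only strand exchange gene called at no time and had the smallest 6-hour change of the step. Rad52 measured 2059, 1549, 1190, 1292 and 1228 in the non-irradiated arrays and 2831, 1207, 2761, 1547 and 1044 at 6 hours. Rad52 then measured 1827, 1665, 2235, 2429 and 1781 at 24 hours and 1973, 1569, 1262, 1460 and 1656 at day 14. The 4 groups overlapped, and at 6 hours replicates 1 and 3 were above every non-irradiated array while replicates 2 and 5 were at the low end. Its log2 change was 0.27 ± 0.23 (adjusted p = 0.437) at 6 hours and 0.46 ± 0.23 (adjusted p = 0.136) at 24 hours. A second, dimmer Rad52 probe set changed by -1.44 at 6 hours, -1.64 at 24 hours and -1.10 at day 14, so probe sets for this gene disagreed. Fignl1, an ATPase that removes the recombinase from DNA, was low in all 10 early arrays. Its arrays ranged over 134 to 293 at 6 hours, 168 to 242 at 24 hours and 1455 to 1911 at day 14, against 1276 to 1635 in non-irradiated arrays, with log2 changes of -2.75 ± 0.20 (adjusted p = 4.52e-11) and -2.81 ± 0.20 (adjusted p = 2.16e-11) at the early times. Rad51ap1, which binds the recombinase and stimulates strand invasion, ranged over 89.9 to 295 at 6 hours and 74.6 to 182 at 24 hours, against 522 to 1216 in non-irradiated arrays. Its log2 changes were -2.33 ± 0.33 (adjusted p = 4.48e-06) and -2.95 ± 0.33 (adjusted p = 9.44e-08).

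**Figure D4:**
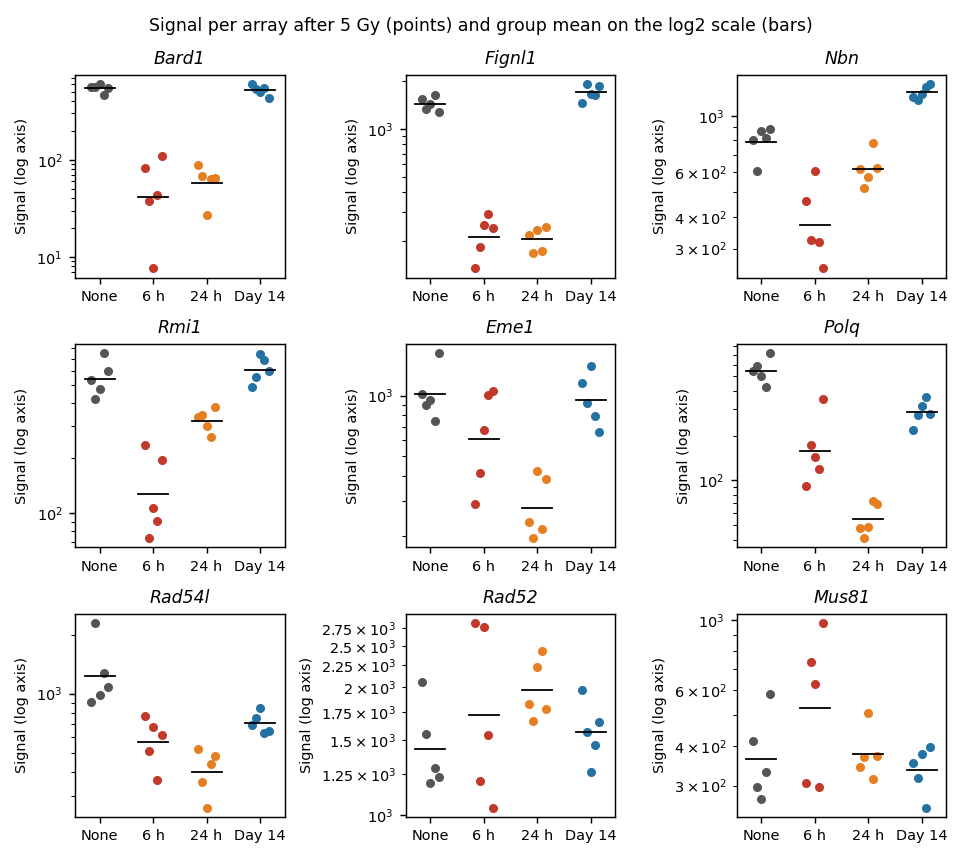
Signal of 9 genes in the 20 arrays (points, log axes that differ between panels) by group, with the group mean on the log2 scale as a bar. Bard1 and Fignl1 are low at 6 and 24 hours, Nbn and Rmi1 are lowest at 6 hours, Eme1 and Polq are lowest at 24 hours, Rad54l and Polq are still below the non-irradiated arrays at day 14, and the groups of Rad52 and Mus81 overlap.

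In the Fanconi pathway Fancd2 and Fanci are the ubiquitinated pair, and Fancd2 had the largest 6-hour change of its step. Fancd2 signal was 663, 709, 707, 496 and 655 in the non-irradiated arrays and 103, 98.05, 105, 163 and 194 at 6 hours. Fancd2 signal at 24 hours was 147, 135, 59.99, 90.8 and 93.3, and at day 14 it was 503, 778, 558, 645 and 552. All 10 early arrays were at 194 or less and all other arrays at 496 or more. Fancd2 was 5.0-fold lower at 6 hours (log2 change -2.32 ± 0.27 (SE), adjusted p = 2.19e-07) and 6.34-fold lower at 24 hours (log2 change -2.66 ± 0.27 (SE), adjusted p = 1.73e-08). Fanci gave 1198, 995, 995, 1252 and 1115 without irradiation, then 769.5, 1228, 762, 473 and 331 at 6 hours. Fanci gave 648, 767, 588, 717 and 509.8 at 24 hours and 1300, 1225, 1199, 1314 and 1183 at day 14. The 24-hour arrays lay below the non-irradiated ones, and at 6 hours replicate 2 was within their range. Fanci was 1.71-fold lower at 6 hours (log2 change -0.77 ± 0.23 (SE), adjusted p = 0.0121) and 1.73-fold lower at 24 hours (log2 change -0.79 ± 0.23 (SE), adjusted p = 0.00984). Both calls were lost after median centring. The 6-hour call was also lost in the fit of only the 2 groups, and the 24-hour call with the 3' minus 5' covariates. A second, dimmer Fanci probe set had log2 changes of -2.44 and -2.16 at these times, so the size of the Fanci fall depended on the probe set.

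The core complex and its helpers were uneven. Fancl is the ubiquitin ligase of the core and Ube2t the ubiquitin-conjugating enzyme that serves it. Fancl ranged over 112 to 262 at 6 hours and 190.4 to 308 at 24 hours, against 660.3 to 907 in non-irradiated arrays, a log2 change of -2.00 ± 0.22 (adjusted p = 6.39e-08) and -1.72 ± 0.22 (adjusted p = 5.75e-07). Ube2t ranged over 22.1 to 130.4 at 6 hours, with 1 array at background, and 31.03 to 54.5 at 24 hours, against 230.1 to 354 in non-irradiated arrays. The log2 changes of Ube2t were -2.13 ± 0.37 (adjusted p = 5.84e-05) and -2.79 ± 0.37 (adjusted p = 1.14e-06). Both enzymes of the ubiquitin transfer were therefore called lower at both times, with no overlap between groups.

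Fanca, Fancb, Fancc and Fancg are structural subunits of the core. Fancg read 1720, 1768, 1587, 1959 and 1673 in non-irradiated cells and 403, 1535, 1314, 1141 and 826 at 6 hours. Fancg read 752, 886, 725, 811 and 559 at 24 hours, then 1785, 1683, 1198, 1253 and 1009 at day 14. At 6 hours Fancg spread widely, with replicate 1 at 403 and replicate 2 close under the non-irradiated arrays, and no early array reached that range. Fancg was 1.83-fold lower at 6 hours (log2 change -0.87 ± 0.25 (SE), adjusted p = 0.00864) and 2.35-fold lower at 24 hours (log2 change -1.23 ± 0.25 (SE), adjusted p = 0.000318). Fanca changed by -1.50 ± 0.27 (adjusted p = 1e-04) at 6 hours and -2.05 ± 0.27 (adjusted p = 1.11e-06) at 24 hours, with no overlap at either time. Fancc had the smallest 6-hour change of the step. Fancc measured 161, 231, 214, 148 and 154 in the non-irradiated arrays and 154, 78.8, 161, 218 and 314 at 6 hours. Fancc then measured 177, 225, 203, 227 and 223 at 24 hours and 189.5, 357, 154, 300 and 192 at day 14. The Fancc groups overlapped at all times, and its log2 change was -0.08 ± 0.32 (adjusted p = 0.889) at 6 hours and 0.23 ± 0.32 (adjusted p = 0.643) at 24 hours. Other Fancc probe sets changed by -0.19 and -0.45 at 6 hours and by -0.86 and -0.17 at 24 hours. At day 14 those probe sets changed by -1.38 and -0.62, where the one used was at 0.35. On the probe set used, Fancc was called at no time in the reported model. Fancb was not called either (-0.78 ± 0.66 (adjusted p = 0.443) and -1.23 ± 0.66 (adjusted p = 0.177)), although its 24-hour arrays, 37.4 to 119, were all below the non-irradiated ones, 125 to 277. At 6 hours 1 Fancb array, replicate 3, was at background with a signal of 5.74, and the other 4 were between 181.8 and 300.2. Without that array the 24-hour change of Fancb, -1.23, was called (adjusted p = 0.0063). Fancb was also called lower at 24 hours with array weights, in the fit of only the 2 groups, with the 3' minus 5' covariates and over the mean of its probe sets.

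Fancm, a translocase that brings the core to DNA, was called lower at both early times. It changed by -1.49 ± 0.37 (adjusted p = 0.00288) at 6 hours and -1.16 ± 0.37 (adjusted p = 0.0186) at 24 hours, and the 24-hour call was lost without non-irradiated replicate 5 (adjusted p = 0.0514). Brip1, a helicase that binds Brca1, showed no call at 6 hours. Its 6-hour arrays, 66.8 to 527, lay below, inside and above the non-irradiated range of 207 to 406. At 24 hours Brip1 was lower (log2 change -1.27 ± 0.44 (SE), adjusted p = 0.0287), a call lost without non-irradiated replicate 1 or 4 or 24-hour replicate 1, 2 or 5, with adjusted p up to 0.0822. At day 14 all 5 Brip1 arrays, 461 to 725, were above all non-irradiated arrays, and the change missed the threshold (log2 change 1.14 ± 0.44 (SE), adjusted p = 0.0628). This rise was called after quantile normalization or median centring, with array weights, and in the fit of only the 2 groups. It was also called with a replicate block, with the 3' minus 5' covariates, and without 6-hour replicate 2, 3 or 5.

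Resolution of the joined molecules begins with Blm, a helicase, and its partner Rmi1, which together with a topoisomerase dissolve crossed strands. Blm signal was 1028, 705, 859, 733 and 921 in the non-irradiated arrays and 267, 309, 285, 673 and 109 at 6 hours. Blm signal at 24 hours was 148, 207, 187, 217 and 406, and at day 14 it was 1248, 1029, 1343, 1168 and 1026. The early arrays were all lower than the non-irradiated ones, with 6-hour replicate 4 nearest to them. Blm was 2.99-fold lower at 6 hours (log2 change -1.58 ± 0.32 (SE), adjusted p = 0.00037) and 3.82-fold lower at 24 hours (log2 change -1.94 ± 0.32 (SE), adjusted p = 2.76e-05). At day 14 it was not called (log2 change 0.46, adjusted p = 0.313). Fitted with only the 2 groups compared, or after median centring, Blm was called higher at day 14. Rmi1 gave 531, 421, 479.7, 748 and 596 without irradiation, then 235, 73.3, 107, 90.5 and 195 at 6 hours. Rmi1 gave 336, 343, 299, 260.2 and 379 at 24 hours and 491, 554, 742, 685 and 598 at day 14. Each 24-hour array lay above each 6-hour array and below each non-irradiated array. Rmi1 had the largest fitted 6-hour change of the step, 4.27-fold (log2 change -2.09 ± 0.28 (SE), adjusted p = 1.42e-06). With cross-hybridizing probe sets left out, another probe set stands for Rmi1, and its change of -1.04 was not called (adjusted p = 0.206) and was smaller than that of Blm. At 24 hours, on the probe set used, it was 1.7-fold lower (log2 change -0.76 ± 0.28 (SE), adjusted p = 0.0379). The 24-hour call was lost without any 1 of 7 arrays (non-irradiated replicates 1, 4 and 5 and 24-hour replicates 1 to 4; adjusted p up to 0.107). The direct comparison called 24 hours higher than 6 hours (log2 change 1.33 ± 0.28 (SE), adjusted p = 0.000723). That call was lost with cross-hybridizing probe sets left out, and with the 3' minus 5' signals or the erythroid marker mean as covariates. The 4 other Rmi1 probe sets changed by -0.46 to -2.45 at 6 hours and by -0.47 to -2.01 at 24 hours, and the mean over the gene's probe sets gave 0.35 for 24 hours against 6 hours, which was not called.

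Mus81 is the nuclease that cuts joined molecules and Eme1 its regulatory partner. Mus81 read 414, 297, 271, 332 and 584 in non-irradiated cells and 307, 735, 626, 298 and 980.2 at 6 hours. Mus81 read 342, 371, 508, 315 and 371 at 24 hours, then 354, 318, 377, 256 and 397 at day 14. At 6 hours replicates 2, 3 and 5 were above every non-irradiated array and the other 2 were in their range. Mus81 was not called at 6 hours (log2 change 0.53 ± 0.29 (SE), adjusted p = 0.195) or 24 hours (log2 change 0.04 ± 0.29 (SE), adjusted p = 0.932). Eme1 measured 1017, 903, 954, 752 and 1621 in the non-irradiated arrays and 289, 412, 672, 1005 and 1051 at 6 hours. Eme1 then measured 235, 196, 421, 217 and 384 at 24 hours and 1148, 918, 1396, 792 and 660.1 at day 14. At 6 hours Eme1 arrays ran from well below the non-irradiated range to inside it, and at 24 hours they were all below it. Eme1 was not called at 6 hours (log2 change -0.73 ± 0.31 (SE), adjusted p = 0.0889) and was 3.65-fold lower at 24 hours (log2 change -1.87 ± 0.31 (SE), adjusted p = 3.75e-05). The fall between 6 and 24 hours was called (log2 change -1.14 ± 0.31 (SE), adjusted p = 0.00882). That call was lost in the fit of only these 2 groups, and with the 3' minus 5' signals or the erythroid marker mean as covariates. Whether Mus81 and Eme1 differ in their change was not tested. Slx4, the scaffold that holds several nucleases, had the smallest 6-hour change of the step. Slx4 signal was 533, 497, 373, 419.8 and 498 in the non-irradiated arrays and 251, 526, 357, 329.6 and 452 at 6 hours. Slx4 signal at 24 hours was 414, 246, 466, 380.1 and 268, and at day 14 it was 441, 339.6, 464, 389 and 511. Its groups overlapped at all times, and the log2 change was -0.31 ± 0.23 (adjusted p = 0.368) at 6 hours and -0.42 ± 0.23 (adjusted p = 0.19) at 24 hours.

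Polq and Uimc1 belong to none of the 4 steps. Polq encodes the polymerase of an alternative end-joining route that uses short stretches of matching bases at resected ends. Polq gave 540.2, 590.3, 501, 424 and 714 without irradiation, then 91.97, 174, 143, 119 and 354 at 6 hours. Polq gave 47.5, 40.95, 48.9, 72.96 and 69.7 at 24 hours and 218, 274, 315, 365 and 279.6 at day 14. Each early and each day 14 array was below each non-irradiated array, and the 24-hour arrays were also below the 6-hour arrays. Polq was 3.45-fold lower at 6 hours (log2 change -1.79 ± 0.32 (SE), adjusted p = 8.22e-05) and 9.83-fold lower at 24 hours (log2 change -3.30 ± 0.32 (SE), adjusted p = 6.44e-09), and the difference between the 2 times was called (log2 change -1.51 ± 0.32 (SE), adjusted p = 0.000819). At day 14 it was still 1.9-fold lower (log2 change -0.93 ± 0.32 (SE), adjusted p = 0.036). The day 14 change was -0.60 after quantile normalization (adjusted p = 0.21) and -0.03 after median centring (adjusted p = 0.955), and neither was called. With the authors' scale the call was lost without any 1 of 8 arrays (non-irradiated replicates 1, 2, 3 and 5 and day 14 replicates 1, 2, 3 and 5; adjusted p up to 0.0895). Uimc1 encodes a ubiquitin-binding protein that draws Brca1 to chromatin beside breaks and limits resection. Uimc1 read 1581, 1602, 1497, 1411 and 1219 in non-irradiated cells and 1886, 1279, 1394, 1660 and 1077 at 6 hours. Uimc1 read 886, 1278, 861, 1401 and 1060 at 24 hours, then 1583, 1661, 1668, 1556 and 1652 at day 14. Only part of the 24-hour arrays lay under the non-irradiated range, and the 6-hour and day 14 arrays overlapped it. Uimc1 was not called at 6 hours (log2 change -0.02 ± 0.16 (SE), adjusted p = 0.939) and was 1.35-fold lower at 24 hours (log2 change -0.43 ± 0.16 (SE), adjusted p = 0.0356). The call was lost without any 1 of 7 arrays (non-irradiated replicates 1 to 4 and 24-hour replicates 1, 3 and 5; adjusted p up to 0.112).

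At day 14 the result depended on the scale. The median probe set signal of an array was 87.3 to 109 at day 14, against 167 to 193.5 in non-irradiated arrays, while the authors' trimmed mean was the same. Centring the arrays on their medians adds 0.25 at 6 hours, 0.38 at 24 hours and 0.90 at day 14 to every log2 change against non-irradiated cells. After centring, the median of the 33 genes was -1.24 at 6 hours, -1.25 at 24 hours and 1.06 at day 14, with 21 genes called lower at 6 hours, 20 at 24 hours and 23 called higher at day 14. The median over all genes was then 0.23, 0.31 and 0.72. The early fall was seen on both scales. At day 14 the genes were near the non-irradiated level on the authors' scale and after quantile normalization (1 lower and 3 higher), and above it after centring. On the centred scale Rad54l changed by 0.10 and Polq by -0.03 at day 14.

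Another 45 genes of the 2 pathways were listed, of which 41 were measured. At 6 hours 24 were called lower and 3 higher, at 24 hours 18 lower and 4 higher, and at day 14 3 lower and 10 higher. Their median log2 change was -0.91 at 6 hours, -0.73 at 24 hours and 0.12 at day 14. Over all genes 14.5%, 13.8% and 13% were called lower at these times, and 12.9%, 15.7% and 9.47% higher. At 6 hours Parpbp (-2.00 ± 0.28 (adjusted p = 4.27e-06)), an inhibitor of recombination, was called lower, as was Mcm8 (-2.16 ± 0.61 (adjusted p = 0.00864)), a helicase subunit of recombination. Mcm8 measured 493, 22.2, 15.5, 343 and 101 at 6 hours, with 2 arrays at background and replicate 1 inside the non-irradiated range of 348 to 498, so the size of its change is not secure. Ercc1, the partner of a crosslink-cutting nuclease, was higher (1.53 ± 0.13 (adjusted p = 1.42e-09)), as was Faap100 (1.18 ± 0.37 (adjusted p = 0.0184)), a subunit of the Fanconi core. At 24 hours the resolvase gene Gen1 (-2.34 ± 0.39 (adjusted p = 3.41e-05)) and Rpa2 (-2.04 ± 0.19 (adjusted p = 5.35e-09)), a subunit of the single-strand binding protein, fell most, and Mad2l2 (0.77 ± 0.18 (adjusted p = 0.00121)), which limits resection, and Sfr1 (0.67 ± 0.14 (adjusted p = 0.000639)), a helper of strand exchange, rose most. At day 14 Slx1b (-1.84 ± 0.54 (adjusted p = 0.0155)), a nuclease bound to Slx4, and Mcm9 (-0.97 ± 0.27 (adjusted p = 0.0106)), the partner of Mcm8, fell, and Fance (1.02 ± 0.35 (adjusted p = 0.0385)), a core subunit, and Swi5 (0.97 ± 0.12 (adjusted p = 1.78e-06)), the partner of Sfr1, rose.

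The 33 genes were set beside lists of proliferation genes and of cell type markers, measured on the same arrays. Counts for these lists are on the authors' scale, and the centring shifts given above apply to them equally. For the 33 genes the mean log2 signal was 9.36 ± 0.04 in non-irradiated arrays, 7.91 ± 0.15 at 6 hours, 7.74 ± 0.06 at 24 hours and 9.43 ± 0.04 at day 14 (SD, n = 5 each). All 23 measured DNA replication genes and all 19 measured mitosis genes were called lower at 6 hours and at 24 hours. Their medians were -1.70 and -1.75 for replication and -1.75 and -1.76 for mitosis, beside -1.49 and -1.63 for the 33. At day 14, 6 replication and 8 mitosis genes were called higher and 1 mitosis gene, Mki67, lower. Mki67, a marker of cycling cells, changed by -1.03 at 6 hours, -1.80 at 24 hours and -0.37 at day 14. Cdkn1a, the cell-cycle inhibitor induced by p53, changed by 2.66, 2.41 and 0.28 (all called), and 13 of 17 p53 target genes were higher at 6 hours and 10 at 24 hours. No cell-cycle phase was measured, so how far the 33 genes moved apart from the number of cycling cells was not tested.

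Erythroid markers moved in the same direction as the 33 genes. All 19 measured markers were called lower at 6 hours and at 24 hours, with medians of -2.63 and -4.41, and 6 were called higher at day 14. Their mean log2 signal per array was 11.7 to 11.8 in non-irradiated arrays, 8.55 to 9.25 at 6 hours, 7.18 to 7.50 at 24 hours and 12.2 to 12.3 at day 14. Klf1 changed by -3.83 at 6 hours, -5.45 at 24 hours and 0.55 at day 14. Pan-endothelial markers moved the other way: 23 of 24 were called higher at 6 hours and 11 at 24 hours, and 15 were lower and 1 higher at day 14, with array means of 9.81 to 9.98, 11.3 to 11.5, 10.4 and 8.98 to 9.11 from non-irradiated to day 14. Cdh5 itself changed by 1.49, 0.63 and -1.31. Of the 15 pan-leukocyte markers 6 were lower and 3 higher at 6 hours, 2 lower and 0 higher at 24 hours, and 6 lower and 2 higher at day 14, and Ptprc changed by -0.83, -0.33 and -0.81. Of 18 granulocyte and monocyte markers 12 were lower and 0 higher at 6 hours, 7 lower and 4 higher at 24 hours, and 7 lower and 2 higher at day 14. Of 13 measured B-lineage markers 3 were lower and 2 higher at 6 hours, 9 lower and 1 higher at 24 hours, and 1 lower and 0 higher at day 14. Over all genes 14.5% were lower and 12.9% higher at 6 hours, 13.8% and 15.7% at 24 hours, and 13% and 9.47% at day 14. The share of leukocyte markers lower at 24 hours, 13.3%, was thus near that of all genes. With the erythroid mean of each array as a covariate, 1 of the 33 genes was called lower at 6 hours and 1 at 24 hours. Since 99.5% of the variance of that mean lies between the groups, the fall of the 33 genes and the fall of erythroid markers cannot be told apart in these arrays.

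**Figure D5:**
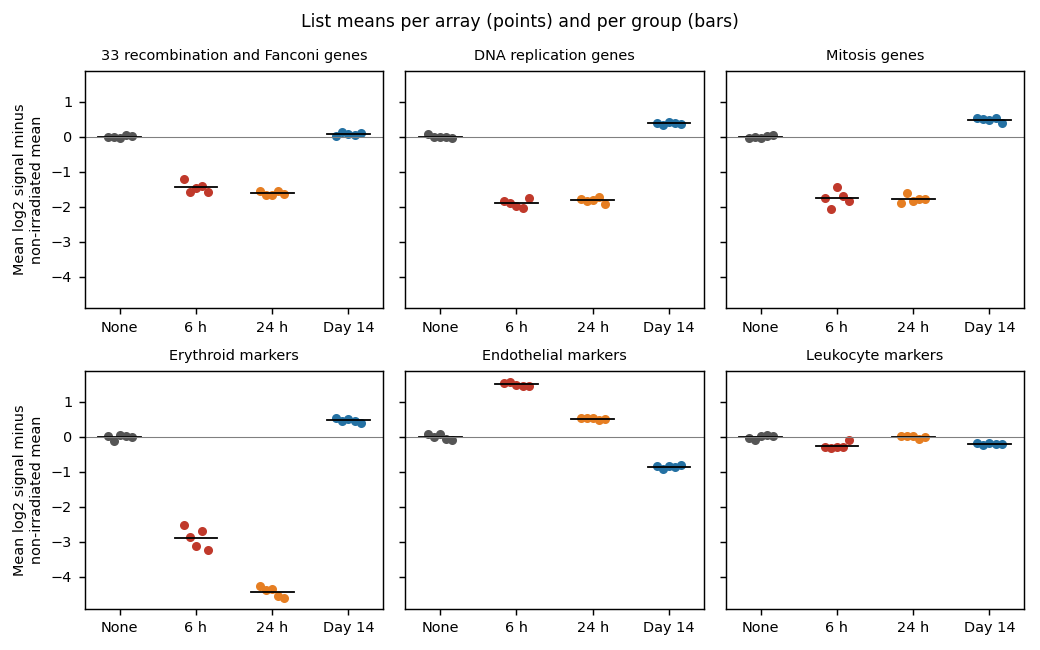
Mean log2 signal of each gene list in each array (points) minus the list's mean over the 5 non-irradiated arrays, with group means as bars. The recombination and Fanconi genes, DNA replication genes and mitosis genes are low at 6 and 24 hours and near or above 0 at day 14; erythroid markers fall further, to a mean of 7.35 at 24 hours against 11.8 in non-irradiated arrays, and endothelial markers are above 0 at both early times.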

How the data were processed

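Total RNA of bone marrow VE-cadherin+ cells was extracted with a Qiagen RNeasy micro kit and amplified with the Nugen Ovation V2 system before hybridisation, per the labels' protocols. The authors deposited linear probe set intensities, 1 column per array, and per the submitters' processing notes they used Affymetrix Expression Console and Transcriptome Analysis Console. As read from the values, the mean of each array after trimming 2% at each end is 500. The summarization algorithm and background correction are not given in the sources used here, and the number of arrays limits the precision.

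Probe sets with 1 symbol in the platform annotation (34945 of 45101; 932 had several symbols, 9160 none, 64 were controls) were kept, 1 was added to the intensity before log2, and of a gene's probe sets, the one whose log2 intensity averaged highest over the 20 arrays was used. One limma 3.58.1 model (R 4.3.3, lmFit and eBayes with an intensity trend) over all 20 arrays gave every contrast, with Benjamini-Hochberg adjustment over 18193 genes. It was tested on simulated data. Background is the 95th percentile of 27 probe sets for absent bacterial genes (17.5 to 51.5 per array). No array was dropped.

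Values in every array are given for the called gene with the largest 6-hour change, the gene with the highest mean signal (used only to pick it) and the gene with the smallest 6-hour change of each step, for partner pairs and complexes, and for Polq and Uimc1. Of other pathway genes, the 2 largest called rises and falls at each time are named. The genes and lists were chosen with earlier results of these data known. Shared replicate numbers did not pair arrays: over 30 same-numbered pairs the correlation of deviations from the group means was -0.07 to 0.05, so no block was used. Alternatives covered normalization, the value added before log2, dim genes, probe set choice, array weights, 2-group fits, covariates, a replicate block and each array left out. Figures were drawn with matplotlib 3.10.9 in Python 3.11.15.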

Additional observations from a re-analysis of the deposited data

Results flagged for a closer look

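In 6 of the 132 sets of 5 arrays (33 genes in 4 groups) 1 array stood apart from the other 4 by Dixon's test at the 95% level, which chance does in about 1 in 20 sets. These were non-irradiated replicate 2 for Nbn (609 against 800.0 to 886 in the others), non-irradiated replicate 2 for Xrcc3 (308 against 692 to 958), non-irradiated replicate 4 for Fancd2 (496 against 654 to 709), 6-hour replicate 1 for Palb2 (310.4 against 41.1 to 70.4), 6-hour replicate 3 for Fancb (5.74 against 181.8 to 300.2) and 24-hour replicate 3 for Bard1 (26.8 against 62.9 to 88.5).

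Direct tests between the times, in the same limma model, called 4 of the 33 genes at 24 hours against 6 hours (2 lower and 2 higher, where 10.1% of all genes were lower and 13.7% higher, so the share is below that of all genes). They called 28 at day 14 against 24 hours and 24 at day 14 against 6 hours, all higher, where 15.2% and 19.8% of all genes were higher. The 4 were Nbn, higher by 0.72 on the log2 scale at 24 hours than at 6 hours, Rmi1, higher by 1.33, Eme1 with a change of -1.14 and Polq with a change of -1.51. The means of Nbn and Rmi1 were thus lowest at 6 hours and those of Eme1 and Polq at 24 hours. The calls of Nbn and Eme1 were lost in the fit of only the 2 groups, and that of Rmi1 over the mean of its probe sets. The Rmi1 call was also lost with cross-hybridizing probe sets left out. All 3 of these calls were lost with the 3' minus 5' signals or the erythroid marker mean as covariates.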

How the results depend on the processing

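The call of a broad early fall held under all settings except 2. With the erythroid covariate 1 gene was called lower at 6 hours and 1 at 24 hours. With the covariates of 3' minus 5' Gapdh and beta-actin signal, 13 were lower at 24 hours. Of the variance of the erythroid mean 99.5% lies between groups, and of that of the Gapdh difference 83.8%. With the erythroid covariate, 0 genes were lower at day 14 against non-irradiated cells, 1 lower and 0 higher at 24 hours against 6 hours, and 0 higher at day 14 against 24 hours and against 6 hours. Changes fitted with this covariate are extrapolations, because nearly all of its variance lies between groups, and their sizes are not secure. At 6 hours 0 genes were called higher with it. Signs turned with the erythroid covariate at 6 hours for Mre11a (1.09), Exo1 (0.75), Palb2 (2.82), Rad51ap1 (0.05), Rad51c (7.98), Rad54b (7.73), Fanca (1.20), Ube2t (0.90), Fanci (1.65) and Blm (1.52). At 24 hours they turned for Mre11a (2.30), Exo1 (2.13), Dna2 (0.99), Bard1 (1.15), Palb2 (6.32), Rad51ap1 (0.70), Rad51c (13.42), Rad54b (13.96), Fanca (2.10), Ube2t (1.86), Fanci (2.92), Brip1 (4.64), Blm (2.83) and Uimc1 (1.81), and at day 14 for Polq (0.08). The 3' minus 5' covariates gave 1 lower and 2 higher at day 14 and 0 higher at 24 hours against 6 hours. They also gave 14 higher at day 14 against 6 hours, and 0.29 for Brip1 at 24 hours.

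Median centring gave 1 gene higher at 24 hours and 0 lower and 23 higher at day 14, with turned signs at day 14 for Rad54l (0.10), Fancd2 (0.80), Mus81 (0.78), Eme1 (0.80) and Slx4 (0.78). Quantile normalization gave 1 lower and 3 higher at day 14. Averaging all probe sets of each gene gave 7 lower at 24 hours against 6 hours, 1 lower at day 14 against 6 hours, and -0.80 for Rad50 at day 14. Leaving out cross-hybridizing probe sets gave 1 higher at 24 hours against 6 hours and 1 lower at day 14 against 6 hours. Array weights gave 1 higher at 24 hours and 3 at day 14. Fits of only the 2 groups compared gave 1 higher at 24 hours, 5 higher at day 14, 1 lower and 1 higher at 24 hours against 6 hours, and 1 lower at day 14 against 24 hours. The replicate block gave 2 higher at day 14, Nbn and Brip1, and left the other counts as they were (25 lower at 6 hours, 27 at 24 hours). Of 30 same-numbered pairs, 10 correlated best with their own number, each among the 5 arrays of the other group.

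Leaving out each array in turn gave 23 to 26 lower at 6 hours, 23 to 28 at 24 hours, and 0 to 2 lower and 0 to 2 higher at day 14. The counts were 2 to 5 lower and 2 to 3 higher at 24 hours against 6 hours, 27 to 29 higher at day 14 against 24 hours, and 0 to 1 lower and 22 to 25 higher at day 14 against 6 hours. Without non-irradiated replicate 2 0 of the 33 genes were called at day 14 against non-irradiated cells; without 6-hour replicates 3, 4 and 5 the count of genes lower at 24 hours than at 6 hours was 4, 4 and 5. Why these values moved was not tested, and sign changes of values called under neither setting were not counted. Signal near background limits the size of change for Bard1, Rad51c and Rad54b.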
